A study of Mus musculus with 4 samples.

Results

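Mature miRNA arms that serve as markers of blood-derived cells were followed in the stromal-vascular fraction (SVF) of visceral white adipose tissue (visWAT). They are mmu-miR-142-3p and mmu-miR-142-5p from the leukocyte gene Mir142, mmu-miR-223-3p from the myeloid gene Mir223, and mmu-miR-150-5p and mmu-miR-150-3p from the lymphocyte gene Mir150, written without the species prefix from here on. The members were the 5 listed names, each matched to the systematic name of non-control spots, out of 1247 mouse miRNAs on the array. All 5 were detected on every array and all 5 passed the detection filter that left 425 miRNAs for testing. The SVF was the cell pellet left after collagenase digestion of fat, once the floating adipocytes had been removed. Both groups were female C57/BL6 mice of 8 weeks, kept, per the labels, at room temperature on a standard diet. The strain entries count upward from C57/BL6 over the 4 samples, whereas the growth protocol names C57/BL6 alone. One group received CL-316243 (CL), an agonist of the β3-adrenergic receptor, at 1 mg/kg for 3 days, and the other received the vehicle PBS. Each group had 2 arrays, and each array held RNA pooled from 5 mice, so that p-values refer to pools and not to single mice. The injections are called subcutaneous in the labels and intraperitoneal in the methods of the study. The methods also describe a move to thermoneutral housing before experiments, and whether it applied to these mice is not given in the sources used here.

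As background, a mature miRNA guides the Argonaute protein to mRNAs that pair with its seed, bases 2 to 8 from the 5′ end, and lowers the output of those mRNAs. Mir142 is transcribed in nearly all cells of the blood lineages and yields abundant miRNA from both arms of its hairpin. Mir223 is strongest in neutrophils, monocytes and macrophages and is kept low in lymphocytes, and its product restrains granulocyte activity. Mir150 is high in mature B, T and natural killer cells, where its 5p arm targets the transcription factor Myb, and it is much lower in most myeloid cells. White fat stroma holds macrophages, lymphocytes and other leukocytes beside fibroblasts, preadipocytes and vascular cells. In RNA of a whole SVF, fewer cells of a type and less of a miRNA per cell cannot be told apart.

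The mature sequences show that the arms carry different seeds and so address different sets of mRNAs. RefSeq's table for GRCm38.p6 held 4 of the 5 arms, with miR-150-5p as the remaining one. They are written 5′ to 3′ with the seed in capitals. RefSeq lists the arms of Mir142 as miR-142a.
miR-142-3p, chr11:87756903-87756925, plus strand: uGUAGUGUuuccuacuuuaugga
miR-142-5p, chr11:87756867-87756887, plus strand: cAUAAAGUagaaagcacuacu
miR-223-3p, chrX:96242884-96242905, plus strand: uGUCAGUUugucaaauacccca
miR-150-3p, chr7:45121798-45121819, plus strand: cUGGUACAggccugggggauag

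No 2 of these 4 seeds were the same, and none of the other mature names among the 1679 in the table had the same 7 bases. Both arms of miR-142 are cut from the same hairpin of 64 bases, shown here with the arms in capitals because both arms were measured and had the same order of the 2 groups.
Mir142 hairpin, chr11:87756864-87756927, plus strand: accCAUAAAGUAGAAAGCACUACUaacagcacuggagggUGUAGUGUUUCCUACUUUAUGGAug

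The gene Mir142 lies 1266 bases before Tspoap1, and on the opposite strand RefSeq places Mir142b over the same bases. Mir223 lies at chrX:96242817-96242926, inside the span of the long non-coding RNA gene F630028O10Rik and 4274 bases before Vsig4, a gene of tissue macrophages. Mir150 lies at chr7:45121757-45121821 and overlaps no other annotated gene.

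The array reads each arm through short probes, and the longest probe of each arm is shown because it determines which part of the arm is measured. Capitals mark the bases that pair with the seed.
miR-142-3p probe: tccataaagtaggaaACACTACa
miR-142-5p probe: agtagtgctttctACTTTA
miR-223-3p probe: tggggtatttgacaAACTGAC
miR-150-3p probe: ctatcccccaggc

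The probe of miR-142-3p pairs with all 23 bases of the arm, and those of miR-142-5p and miR-223-3p reach bases 3 to 21 and 2 to 22. The probe of miR-150-3p covers only bases 10 to 22, outside the seed, and 53.8% of it is C. None of the probes printed for these 4 arms is listed for another miRNA. The probe of miR-142-3p contains the sequence of miR-142b in the same sense, so it does not pair with that miRNA.

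The 4 arrays lay on 1 slide. Vehicle arrays occupied slide row 1 and CL arrays slide row 2, and the effects of row and treatment cannot be told apart. The slide column held 1 array of each group and coincided with the replicate number. Mean signals of the 1000 negative control spots were 31.7 to 38.6, between 386 and 431 miRNAs were detected on an array, and no spot was saturated. Signals were background-corrected, quantile-normalized between arrays and summarised per miRNA on the log2 scale, and the groups were compared by limma's moderated test over 425 miRNAs. Over these, the difference between the 2 vehicle arrays was larger than that between the 2 CL arrays, with median sizes of 0.27 and 0.095 on the log2 scale.

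The leukocyte arms did not move in one direction after CL treatment. miR-142-3p was 4.25-fold and miR-142-5p 3.85-fold higher in CL-treated SVFs, miR-150-5p was 1.86-fold lower, and miR-223-3p had nearly the same signal in both groups. In limma's moderated test, none of the 5 arms passed an adjusted p of 0.05, and neither did any of the 425 tested miRNAs (0% called). At an unadjusted p of 0.05, 2 of the 5 arms were called higher and 1 lower in CL-treated SVFs. Of all tested miRNAs, 35.1% were called at this threshold, 18.8% higher and 16.2% lower. SAM and the methods' t-test also called 0 miRNAs after adjustment, and called 60 and 52 at the unadjusted threshold. Neither called a miR-142 arm there: the unadjusted p of miR-142-3p and miR-142-5p was 0.0910 and 0.0745 in SAM, from permutations pooled over miRNAs. Of the 5 arms, both called miR-150-5p only, with an unadjusted permutation p of 0.0118 in SAM. With the slide column as a block, both miR-142 arms and miR-150-5p passed an adjusted p of 0.05 in limma, as did 20.2% of all tested miRNAs, 10.8% higher and 9.41% lower. In that fit 4 arrays leave little spread to measure per miRNA, so blocked p-values rest largely on variance shared over miRNAs. Both CL arrays lay on one side of both vehicle arrays for all 5 arms, above for 3 and below for 2. This was the case for 72.9% of the tested miRNAs, 38.1% above and 34.8% below. The median log2 fold change of all tested miRNAs was −0.0079, with quartiles of −0.33 and 0.34.

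**Figure D1:**
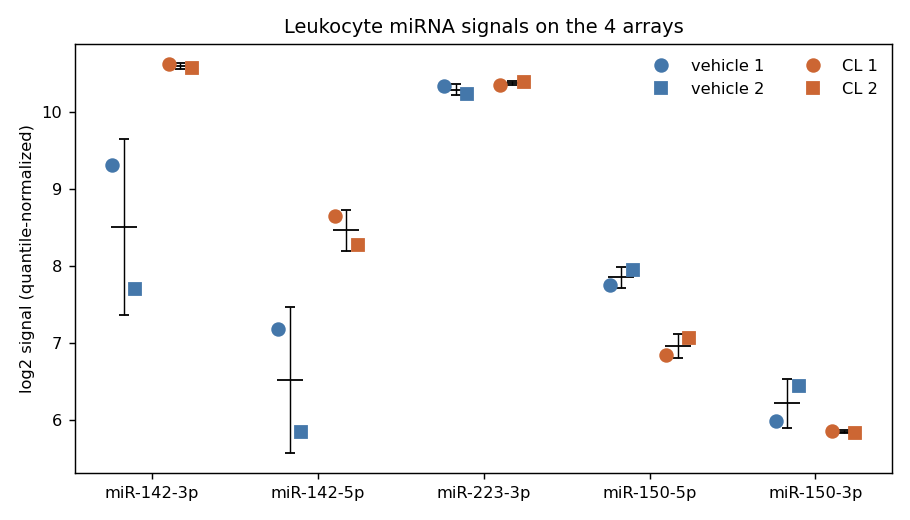
Normalized log2 signal of each arm on the 4 arrays (y axis), with circles for slide column 3 and squares for slide column 4, blue for vehicle and orange for CL. Black bars give the group mean ± SD (n = 2 arrays). The vehicle arrays of miR-142-3p lie at 9.32 and 7.70, below CL arrays at 10.62 and 10.57, while the 4 values of miR-223-3p lie between 10.24 and 10.40.

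For miR-142-3p, the normalized log2 signals of vehicle 1 and vehicle 2 were 9.32 and 7.70, and those of CL 1 and CL 2 were 10.62 and 10.57. Vehicle 2 was the low array, and the CL arrays were close to each other and above both vehicle arrays. The log2 fold change was 2.09 (standard error 0.56, 95% interval 0.60 to 3.57, adjusted p = 0.102 from limma), the second highest of the 425. Blocking on the slide column gave an adjusted p of 0.0207 in limma. Within slide columns the log2 fold change was 1.30 between CL 1 and vehicle 1 and 2.87 between CL 2 and vehicle 2. Its size therefore depended on the vehicle array: without vehicle 2 the log2 fold change was 1.26 and without vehicle 1 it was 2.88. The gap of −1.62 between vehicle 2 and vehicle 1 was the second largest of all tested miRNAs in size, whereas the gap of −0.051 between the CL arrays ranked 288 of 425.

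For miR-142-5p, the normalized log2 signal was 7.19 and 5.85 on vehicle 1 and vehicle 2, and 8.65 and 8.28 on CL 1 and CL 2. This arm had the same order of groups as the 3p arm, again with vehicle 2 lowest. The log2 fold change was 1.95 (standard error 0.48, 95% interval 0.66 to 3.23, adjusted p = 0.102 from limma), the third highest. Blocking on the slide column gave an adjusted p of 0.00981, and the values within the columns were 1.46 and 2.43. Without vehicle 2 the log2 fold change was 1.21, and without vehicle 1 it was 2.62. The 3p signal lay above the 5p signal by 2.13, 1.85, 1.97 and 2.30 on vehicle 1, vehicle 2, CL 1 and CL 2. The mean of this distance differed by 0.14 between the groups (standard error 0.21). An exact permutation test, two-sided, gave p = 0.667, but 2 arrays against 2 cannot give a p below 0.333, so that a change in the distance is not excluded. Because probes differ in affinity, the distance itself is not a ratio of abundances.

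The spots behind these values showed the same order. On the longest probe of miR-142-3p, the median spot signal in scanner units was 1107 and 327.2 in the vehicle pools and 2168 and 2227 in the CL pools. On that of miR-142-5p it was 178.7 and 70.0 in the vehicle pools and 361.9 and 330.2 in the CL pools. The shorter probes gave the same order, with 508.5 and 155.9 against 1032 and 1080 for miR-142-3p and 180.9 and 71.3 against 367.9 and 333.7 for miR-142-5p. All 40 spots of each arm had a higher mean on the CL arrays than on the vehicle arrays, and all 40 were lower on vehicle 2 than on vehicle 1. Every spot was well above background on every array. Spots of 1 probe on 1 array share a pool and are not replicates of a treatment.

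**Figure D2:**
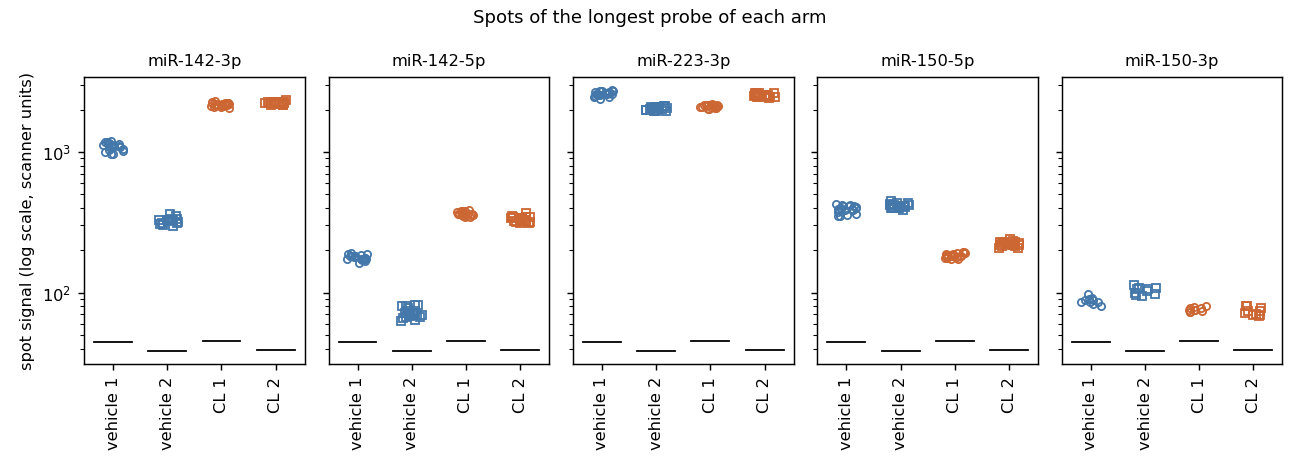
Signal of single spots of the longest probe of each arm (y axis, scanner units, log scale) on each array, without outlier spots, before normalization. The black line is the 99th percentile of the negative control spots, 38.4 to 45.5, and all spots of the 5 arms lie above it, with the lowest group of miR-142-5p spots, on vehicle 2, at a median of 70.0. Heights are not adjusted for differences in signal between arrays, and heights of different arms may not be compared.

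miR-223-3p, the myeloid arm, had normalized log2 signals of 10.34 and 10.24 in the vehicle pools and 10.36 and 10.40 in the CL pools. The 4 values spanned less than the gap between the vehicle arrays of either miR-142 arm. The log2 fold change was 0.086 (standard error 0.12, 95% interval −0.23 to 0.40, adjusted p = 0.640 from limma), and 0.776 when blocked on the slide column. The interval does not reach the log2 fold change of either miR-142 arm, and it leaves room for a change of up to 0.40 in size. The sign was not settled: it was −0.051 on the longest probe alone and −0.085 in the deposited log2 table. Before normalization, the longest probe gave 2589 and 2044 in the vehicle pools and 2128 and 2512 in the CL pools, with the groups overlapping. The shorter probe gave 826.3 and 635.4 against 694.1 and 825.7, and 28 of the 40 spots had a higher mean on the CL arrays. The other arm of this gene, miR-223-5p, was detected on 0 of the 4 arrays and was not tested.

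miR-150-5p, the arm that acts on Myb in lymphocytes, had normalized log2 signals of 7.76 and 7.95 in the vehicle pools and 6.85 and 7.07 in the CL pools. The CL signals were the lower ones, with no overlap between groups, and the arrays of each group were close together. The log2 fold change was −0.89 (standard error 0.15, 95% interval −1.29 to −0.50, adjusted p = 0.0917 from limma). Blocking on the slide column gave an adjusted p of 0.0250, and the values within the columns were −0.91 and −0.88. Leaving out any single array moved the log2 fold change only within −0.98 to −0.79. The longest probe had median spot signals of 393.7 and 410.7 in the vehicle pools and 182.8 and 220.8 in the CL pools, and all 40 spots had a lower mean on the CL arrays. The shorter probe gave 170.8 and 176.4 against 89.5 and 104.7. miR-150-5p was the one arm that SAM and the methods' t-test also called at the unadjusted threshold, with an adjusted p of 0.339 in SAM.

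miR-150-3p, the less abundant strand of the same hairpin in most cells, had normalized log2 signals of 5.99 and 6.44 in the vehicle pools and 5.87 and 5.84 in the CL pools. Vehicle 1 was nearer to the CL arrays than to vehicle 2. The log2 fold change was −0.37 (standard error 0.19, 95% interval −0.87 to 0.14, adjusted p = 0.224 from limma). It was −0.13 in one slide column and −0.61 in the other, with an adjusted p of 0.213 when blocked on the column. Without vehicle 1 it was −0.58 (adjusted p = 0.0357 from limma, where the lone vehicle array is assumed to vary like the other group) and without vehicle 2 it was −0.10. Of its 4 probes of 10 to 13 nucleotides, the longest had median spot signals of 87.2 and 103.8 in the vehicle pools and 75.7 and 72.8 in the CL pools. Its 40 spots all had a lower mean on the CL arrays, and the probe of 11 nucleotides gave 87.0 and 96.8 against 71.8 and 72.2. The 2 arms of Mir150 differed in log2 fold change by −0.53 (5p minus 3p, p = 0.333 in a two-sided exact permutation test, which cannot go lower with 2 arrays a group).

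A trend of the signals with probe composition was estimated by a linear fit on length, C share and G share of each longest probe. It was subtracted from every array, and the strength of the fit was not tested. In log2 units, the subtracted part of the log2 fold change was 0.52 for miR-142-3p, 0.34 for miR-142-5p and 0.42 for miR-223-3p. It was 0.07 for miR-150-5p and −0.41 for miR-150-3p. With the trend removed, the log2 fold changes of the 5 arms were 1.57, 1.61, −0.34, −0.97 and 0.039 in this order. In limma, 31 of the 425 miRNAs then passed an adjusted p of 0.05, among them miR-150-5p at 0.0316. The miR-142 arms had 0.0607 and 0.0542. The direction of miR-223-3p and of miR-150-3p turned, with adjusted p of 0.140 and 0.805.

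**Figure D3:**
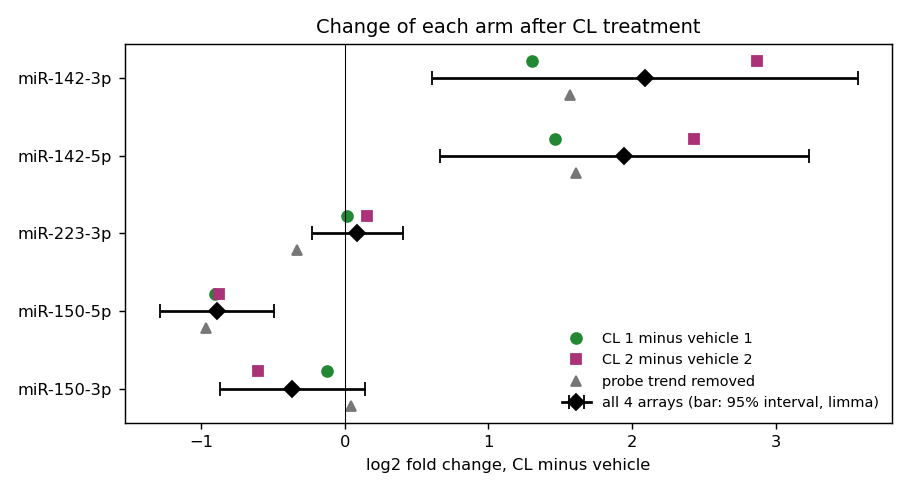
Log2 fold change of each arm, CL minus vehicle (x axis): diamonds give the value over all 4 arrays with its 95% interval from limma, circles and squares the values within slide columns 3 and 4, and triangles the value with the probe trend removed. The column values of miR-150-5p, −0.91 and −0.88, nearly coincide, whereas those of miR-142-3p, 1.30 and 2.87, do not.

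The lineages were compared through the difference of 2 log2 signals within each array, which cancels any scale factor of the array. Only its change between groups can be read, since the probes of different arms differ in affinity. The difference between miR-142-3p and miR-223-3p was −1.02 and −2.54 in the vehicle pools and 0.27 and 0.17 in the CL pools. It was higher by 2.0 in CL-treated SVFs, by 1.29 and 2.72 within the slide columns, and by 1.24 without vehicle 2. The leukocyte arm was thus higher relative to the myeloid arm on both CL arrays than on either vehicle array.

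The difference between miR-142-3p and miR-150-5p was 1.56 and −0.25 in the vehicle pools and 3.77 and 3.50 in the CL pools, a mean change of 2.98. It was 2.21 and 3.75 within the slide columns, 2.06 without vehicle 2 and 3.86 without vehicle 1. The difference between miR-223-3p and miR-150-5p was 2.58 and 2.29 in the vehicle pools and 3.50 and 3.33 in the CL pools. This change of the myeloid relative to the lymphocyte arm, 0.98, was the smallest of the 3 and had the closest values within the slide columns, 0.92 and 1.04. For each of the 3 differences, the CL arrays did not overlap the vehicle arrays. Of single tested miRNAs, 72.9% had no such overlap, and the share over pairs of miRNAs was not computed. The second difference is the sum of the other 2, so the 3 are not separate results. The exact permutation test gave a two-sided p of 0.333 for each, and 0.333 after Benjamini-Hochberg adjustment over the 3, which is the smallest p that this design allows. With the probe trend removed, the 3 changes were 1.90, 2.53 and 0.63.

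**Figure D4:**
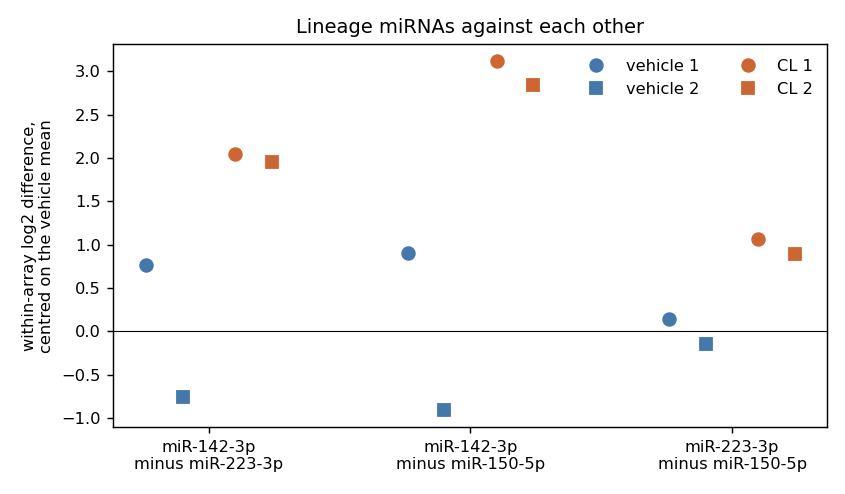
Within-array difference of log2 signals between lineage miRNAs, shifted so that the mean of the vehicle arrays is 0 (y axis), for 3 pairs of arms on the 4 arrays, with blue for vehicle and orange for CL. Both CL arrays lie above both vehicle arrays in every pair, and the vehicle arrays are closest to each other for miR-223-3p minus miR-150-5p.

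A list of other miRNAs known to be enriched in leukocytes was read beside the 5 arms, and the list was not tested against them. Of its 10 names, miR-223-5p and miR-147-3p had no detected array, which left 8 for testing. In limma, 1 of these 8 was called higher and 0 were called lower at the unadjusted threshold, against 18.8% and 16.2% of all tested miRNAs. After adjustment, 0 of the 8 were called, with or without the slide column as a block. Their median log2 fold change was 0.038, beside −0.0079 for all 425. The one called was miR-146b-5p, a brake on inflammatory receptor signalling, with 6.48 and 6.32 in the vehicle pools and 6.86 and 7.08 in the CL pools (log2 fold change 0.57, adjusted p = 0.102 from limma). The lymphocyte-rich miR-342-3p had 8.40 and 8.47 in the vehicle pools and 8.51 and 8.56 in the CL pools, a log2 fold change of 0.10. It thus differed by 0.10 where miR-150-5p differed by −0.89. The remaining 6, among them miR-155-5p, which is induced on immune activation, and miR-146a-5p, had log2 fold changes between −0.06 and 0.18.

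**Figure D5:**
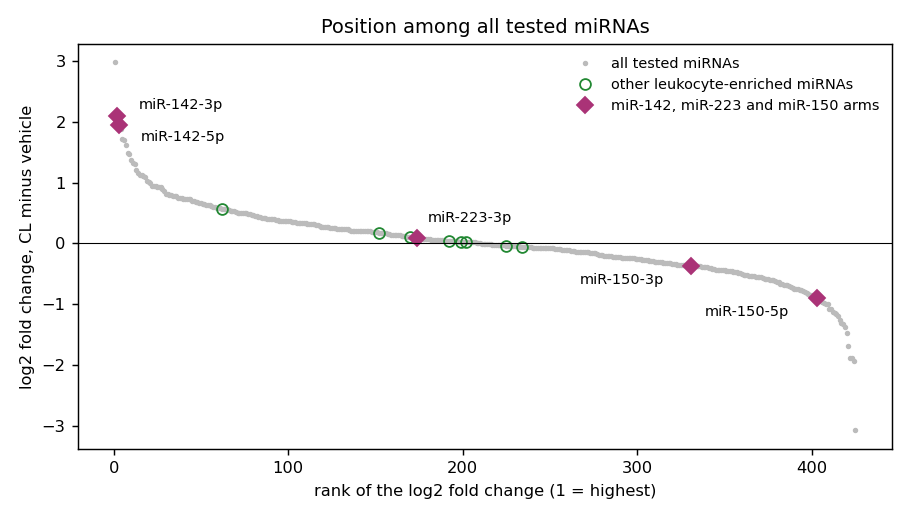
Log2 fold change, CL minus vehicle (y axis), of all 425 tested miRNAs in order of rank (x axis, 1 is the highest). Diamonds mark the 5 arms and open circles the 8 other leukocyte-enriched miRNAs: the miR-142 arms hold ranks 2 and 3, miR-223-3p rank 174, miR-150-3p rank 331 and miR-150-5p rank 403, and the circles lie between −0.06 and 0.57.

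Markers of other SVF cells were counted at the same unadjusted threshold, at which 18.8% of all tested miRNAs were called higher and 16.2% lower. None of these markers passed an adjusted p of 0.05 in limma without the slide column as a block. With that block, 2 endothelial arms passed as lower and 3 red cell arms as higher. Of the mesenchymal and mural arms, 3 passed as higher and 1 as lower. Beside these, 10.8% of all tested miRNAs passed as higher and 9.41% as lower in that fit. The summed normalized signal of both endothelial arms of miR-126 was 13.92 and 13.80 (log2) in the vehicle pools against 12.33 and 12.66 in the CL pools, and both arms were called lower at the unadjusted threshold. The 3 tested red cell arms, of miR-144 and miR-451a, were all called higher, with a summed log2 signal of 13.00 and 13.22 in the vehicle pools and 14.05 and 13.80 in the CL pools. Removing the probe trend took the log2 fold change from 2.98 to 2.60 for miR-144-3p and from 0.92 to 0.36 for miR-144-5p. For miR-451a, which made up most of the sum, it went from 0.73 to 0.22. Of 5 mesenchymal and mural arms, 3 were called higher and 1 lower, with summed log2 signals of 11.35 and 10.86 against 11.89 and 11.95. Of 5 epithelial and mesothelial arms, 4 were detected on no array, and the remaining one, miR-200b-3p, was not called. The part of these cells in the differences of the miR-142 and miR-150 arms was not tested.

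The tested miRNAs whose 4 centred log2 signals lay nearest to those of miR-142-3p were miR-136-5p, miR-142-5p and miR-29b-3p, at root-mean-square differences of 0.12, 0.17 and 0.19 over the 4 arrays. All 3 shared the low value on vehicle 2, which for miR-29b-3p was 7.67 against 9.41 on vehicle 1. Their log2 fold changes were 1.88, 1.95 and 1.72, so that a rise of this size was not particular to the miR-142 arms. Nearest to miR-223-3p were miR-331-3p, miR-29c-5p and miR-328-3p, at 0.00762, 0.0142 and 0.0145, all of them nearly flat over the arrays. Nearest to miR-150-5p were miR-204-5p, miR-5122 and miR-483-5p, at 0.0375, 0.0657 and 0.0820, with log2 fold changes of −0.87, −0.78 and −0.76. With 4 arrays, miRNAs can lie close without being linked, and how many lay this close to each arm was not counted.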

How the data were processed

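Total RNA of 4 SVF pools was labelled with Cy3 and hybridised to 1-colour Agilent mouse miRNA arrays. The authors deposited one scanner file per array, written by Feature Extraction 10.7.1.1, with spot intensity on a linear scale and totals per probe and miRNA, and a table of log2 values whose normalization is not given in detail in the sources used here. The file headers name build mm9, and all coordinates printed here are RefSeq's for GRCm38.p6. SAM after robust multi-array analysis is what the study's methods name.

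With limma 3.58.1 in R 4.3.3, mean spot signals were corrected with normexp without local background, control and outlier spots were left out, and arrays were quantile-normalized and summarised by median polish over each miRNA's spots. Detection on both arrays of either group was required for testing. The two-sided moderated test of limma (lmFit, eBayes) was adjusted by Benjamini-Hochberg over 425 miRNAs. The fit was also run on simulated arrays with independent noise, which leaves out deviations shared by many miRNAs of an array. With 4 arrays, precision is limited by their number.

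The members, lists, tests and alternatives were chosen with earlier results of these data known. The text names the 5 arms, the called or undetected members of the fixed lists with a few others as examples, and the 3 miRNAs most like each of miR-142-3p, miR-223-3p and miR-150-5p. Alternatives were other background corrections, normalizations, summaries, filters and tests, the probe trend, a block for the replicate number, and omission of single arrays. Deviations of arrays with the same replicate number correlated at 0.12 across miRNAs, and no source pairs them, so that the block stands for the slide column.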

Additional observations from a re-analysis of the deposited data

How the results depend on the processing

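All differences between lineages kept their sign under the 12 alternatives that apply to them, at 1.83 to 2.12 for miR-142-3p minus miR-223-3p, 2.53 to 3.15 for miR-142-3p minus miR-150-5p and 0.63 to 1.18 for miR-223-3p minus miR-150-5p. The replicate block is among these 12 and cannot alter the differences, which do not use it. With an array left out they ranged from 1.24 to 2.75, 2.06 to 3.86 and 0.82 to 1.11. Some arms passed an adjusted p of 0.05 in limma under some alternatives. These were miR-142-3p, miR-142-5p and miR-150-5p, with log2 fold changes of 1.95, 1.82 and −1.04 without normalization between arrays, 1.98, 1.87 and −1.0 with median centring, and 2.09, 1.95 and −0.89 with the replicate block. With the probe trend removed, miR-150-5p passed at −0.97. Over all 17 alternatives the adjusted p ran from 4.62e-07 to 0.354 for miR-142-3p, from 2.20e-06 to 0.350 for miR-142-5p and from 0.0162 to 0.339 for miR-150-5p. The lowest values of both miR-142 arms came from median centring. There limma gave all 5 arms the same standard error, 0.34, whatever their own spread between pools. The sign of miR-223-3p turned on the longest probe (−0.051), the sum of detected probes (−0.086), the deposited table (−0.085) and with the trend removed (−0.34). That of miR-150-3p turned with the trend removed (0.039). With an array left out, log2 fold changes ranged from 1.26 to 2.88 for miR-142-3p, 1.21 to 2.62 for miR-142-5p, 0.02 to 0.13 for miR-223-3p, −0.98 to −0.79 for miR-150-5p and −0.58 to −0.10 for miR-150-3p. Without vehicle 1, miR-142-3p at 2.88 and miR-150-3p at −0.58 passed the adjusted threshold.

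Limma called 0 of the 425 miRNAs after adjustment. The replicate block raised this count to 86, leaving the arrays unnormalized to 64, median centring to 44, removal of the probe trend to 31, scanner totals to 26, the deposited values to 7 and an intensity trend in the prior variance to 2. Leaving out vehicle 1 gave 114 calls and leaving out any other array gave 0. The number past the unadjusted threshold, which was 149, became 91 under median centring, 60 in SAM and 52 in the methods' t-test. It was lowest when CL 1 was left out, at 16, and highest without vehicle 1, at 220, with 25 calls when CL 2 was left out. The cause of these shifts was not tested.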
